A study of Mus musculus with 6 samples.

Results

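The 9 genes described here guide the movement of T lymphocytes. They are the CXC chemokine receptors Cxcr4, Cxcr3 and Cxcr6, the CC chemokine receptors Ccr7, Ccr4, Ccr8 and Ccr6, the sphingosine-1-phosphate receptor S1pr1, and Klf2, a transcription factor of resting T cells. Each was taken as the row of the deposited count table whose RefSeq accession carries that mouse symbol, and all 9 of 9 were found among 13177 accessions. The members were chosen by their counts and CPM in these libraries, including the difference between the groups, so every difference between the groups in these 9 genes is given as a description, with no test.

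RNA from mouse CD4+ T cells (helper T lymphocytes), isolated with magnetic beads, was sequenced around the transfer of synthetic miR-155, which is a microRNA of activated lymphocytes. The 6 libraries form 2 groups of 3: the controls, labelled as collected at 0 h, and the cells collected 8 h after transfection. The treatment label of the controls names the oligonucleotide as well, and no group was collected at 8 h without it, so time and exposure cannot be told apart. The description of the 8 h samples calls them CD5+, whereas their cell type label reads CD4+ T cells. The sources used here do not give strain, age or sex of the mice, nor whether each replicate was another animal or culture. P-values in the comparison of the groups thus reflect how far these samples differ, and that spread may be technical.

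Chemokine receptors are G protein-coupled receptors that steer lymphocytes along gradients of small secreted proteins, the chemokines. Ccr7 leads naive and central memory T cells into lymph nodes, and S1pr1 lets them out again towards the sphingosine-1-phosphate of blood and lymph. Klf2, which is induced in quiescent cells downstream of Foxo1 and of the kinase Erk5, drives transcription of S1pr1. Cxcr3, Cxcr6, Ccr4, Ccr8 and Ccr6 mark effector, memory or regulatory subsets and lead them into tissues, while Cxcr4 binds Cxcl12, the chemokine of bone marrow and stroma.

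The mature guide strand of miR-155 is shown because the cells received this microRNA, and its seed, bases 2 to 8, is in capitals. Transcripts that miR-155 represses usually hold the reverse complement of the seed, AGCATTA, in the 3′ untranslated region (3′ UTR).
mmu-miR-155-5p: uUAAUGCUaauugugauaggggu
S1pr1 site: tccccaaaAGCATTActttaactg
Of the 9 genes, only S1pr1 held a match of at least 7 bases in its longest annotated 3′ UTR (11.1%), against 1558 of 12579 genes of the table whose 3′ UTR could be read (12.4%). The match, in capitals in the second sequence, lies at chr3:115710677-115710683 on the minus strand of GRCm38, in the 3′ UTR, and is not an 8mer, because no A follows it. The other 8 genes had no match, 6-base matches included. The annotated 3′ UTRs of Ccr8 and Ccr6 are short, with 24 and 73 bases. The microRNA sequence is from RefSeq (GRCm38.p6) and the site from GENCODE M21 transcripts.

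Summed counts ranged from 4564010 to 12303358 per control library and from 6243803 to 13675127 per 8 h library. All 9 genes had enough counts to enter the comparison of the groups. Replicates differed widely throughout the table: among tested rows detected in all libraries of a group, the highest exceeded the lowest library by a median of 9.83-fold in controls and 10.4-fold at 8 h. Counts of Actb and Gapdh, housekeeping genes, lay between 1 and 11 in every library, and Cd4 itself had 5 to 10 counts. Cd3d and Cd3e, subunits of the T cell receptor complex, had 953 to 73937 and 256 to 11475 counts. It is therefore uncertain that each row counts its gene in the ordinary way, a limit on every value that follows. Counts were divided by scaled library sizes and are given as CPM, the usual unit for counts scaled to a common library size.

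Cxcr4 (chr1:128588199-128592299, minus strand), the receptor for Cxcl12, was the only one of the 9 genes whose groups did not overlap. It gave 334, 470 and 498 reads in control cells against 19, 27 and 124 in 8 h cells. In CPM the controls stood at 59.7, 93.4 and 45.4, and the 8 h libraries at 2.23, 2.03 and 18.0. Every control was above every 8 h library, and 8 h replicate 3 was the highest of its group. The means were 66.2 ± 24.7 CPM and 7.41 ± 9.14 CPM (SD, n = 3 per group), and the fitted log2 fold change was -3.16 ± 1.86 (SE). Without 8 h replicate 3 the log2 fold change was -4.91. Without each of the other 5 libraries it lay between -3.35 and -2.70. Among all 8308 tested rows the groups did not overlap in 10.8%, with 5.08% lower and 5.72% higher at 8 h. In bulk RNA, fewer cells that express a gene and less of its RNA per cell cannot be told apart. Markers of cytotoxic and natural killer cells, 11 of 11 matched, summed to 1328 to 4840 CPM in controls and 242 to 433 CPM at 8 h, without overlap, as for Cxcr4. A few genes carried this sum, with Gzmb at 4535 CPM in control 1 and Nkg7 and Gzma at 1685 and 922 CPM in control 3. Of the 10 tested genes of this list 4 had higher and 6 lower fitted values at 8 h, and the groups did not overlap in 2 (Gzma and Klrb1c). Of their defining genes Gzmk and Klrb1c were at 0 in 1 library each, both at 8 h. Dendritic cell markers, 6 of 8 matched, summed to 27.3 to 117 CPM in controls and 18.0 to 25.0 CPM at 8 h, also without overlap, with Xcr1, Cd209a and Zbtb46 at 0 in some libraries. Only 2 of them were tested: Itgax, at 95.6 CPM in control 1, was lower at 8 h without overlap, while Flt3 averaged 8.65 CPM in controls and 10.4 CPM at 8 h and overlapped. The part of these cells in the values of Cxcr4 was not tested.

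The promoter of Cxcr4 is shown because its groups stood apart, and that of Klf2 because Klf2 is the transcription factor of the set. Each runs from 250 bases before to 50 bases after the annotated start (RefSeq, GRCm38.p6). Capitals mark the GC box (GGGCGG) and, in Cxcr4, the TATA box (TATAAA), or in Klf2 the pattern of MEF2 factors, CTA and TAG with 4 bases between them, searched on both strands.
Cxcr4, chr1:128592250-128592549, minus strand: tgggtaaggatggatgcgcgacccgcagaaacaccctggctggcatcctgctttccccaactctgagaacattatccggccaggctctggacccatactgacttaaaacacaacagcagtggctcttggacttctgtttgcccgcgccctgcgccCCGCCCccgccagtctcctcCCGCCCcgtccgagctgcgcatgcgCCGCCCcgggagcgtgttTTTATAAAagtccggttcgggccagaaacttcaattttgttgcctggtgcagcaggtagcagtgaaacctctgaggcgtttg
Klf2, chr8:72318812-72319111, plus strand: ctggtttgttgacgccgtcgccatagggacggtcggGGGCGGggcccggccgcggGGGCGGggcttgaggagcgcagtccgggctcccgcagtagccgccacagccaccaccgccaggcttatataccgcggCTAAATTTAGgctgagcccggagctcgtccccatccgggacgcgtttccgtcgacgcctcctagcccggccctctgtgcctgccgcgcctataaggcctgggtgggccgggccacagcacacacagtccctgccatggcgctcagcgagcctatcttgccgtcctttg
Promoter windows were found for 7 of the 9 genes, 8 windows in all, because Ccr6 had more than 1. The GC box occurred in Cxcr4 and Klf2, and in 35.7% of all 32851 promoter windows. The TATA box occurred in Cxcr4 (13.6% of all windows), where its matches on both strands overlap, from 32 to 25 bases before the start. The MEF2 pattern occurred in Klf2 (3.69% of all windows), from base -118 to base -109. The AP-1 motif TGANTCA occurred in Ccr4 (7.81% of all windows), and the forkhead motif GTAAACA in none of the 7 (3.65% of all windows). The Ccr4 window, chr9:114496495-114496794 on the minus strand, lies within the gene's span (chr9:114490316-114505476) and not at its outer end. A match is a run of letters, not a measured binding site.

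Cxcr3 (chrX:101731535-101734147), the receptor for the interferon-induced chemokines Cxcl9 and Cxcl10, gave 12, 16 and 124 reads in control cells against 198, 700 and 46 in 8 h cells. Its CPM were 2.15, 3.18 and 11.3 in the controls and 23.2, 52.7 and 6.67 at 8 h. The groups overlapped, because 8 h replicate 3 was below control 3. The log2 fold change was 2.30 ± 1.78 (SE), and 1.40 to 3.40 without each library, the lowest without 8 h replicate 2 and the highest without control replicate 3.

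Cxcr6 (chr9:123806477-123811754), the receptor for Cxcl16, gave 25, 6 and 137 reads in control cells against 5, 61 and 28 in 8 h cells. It averaged 6.05 ± 5.82 CPM in control and 3.08 ± 2.18 CPM in 8 h cells (SD, n = 3 per group). The values of both groups lay in the same range, and the log2 fold change of -0.98 ± 1.53 (SE) turned to 0.14 without control replicate 3.

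Ccr7 (chr11:99144199-99155077), the receptor for the lymph node chemokines Ccl19 and Ccl21, had the widest spread at 8 h among the 8 genes with counts in every library. It gave 1150, 18801 and 5609 reads in control cells against 211, 74750 and 80 in 8 h cells. In CPM these were 206, 3738 and 512 in the controls and 24.8, 5629 and 11.6 at 8 h. At 8 h replicate 2 stood 486-fold above replicate 3, while replicates 1 and 3 were below every control. The log2 fold change was 0.35 ± 2.23 (SE) with all libraries and -6.33 without 8 h replicate 2, a change of sign. It was 2.42 without control replicate 2, -0.12 without control replicate 1 and -0.01 without control replicate 3.

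Ccr4 (chr9:114490316-114505476), the receptor for Ccl17 and Ccl22 on Th2, regulatory and skin-homing T cells, gave 7, 94 and 255 reads in control cells against 11, 162 and 229 in 8 h cells. Replicate 1 was the lowest of each group, at 1.25 and 1.29 CPM, and the group means were 14.4 ± 11.6 CPM and 15.6 ± 16.2 CPM (SD, n = 3 per group). The log2 fold change was 0.11 ± 1.70 (SE), with extremes of -1.05 (8 h replicate 3 left out) and 0.67 (control replicate 3 left out).

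Ccr8 (chr9:120092133-120094906), the receptor for Ccl1 on Th2 and tissue regulatory T cells, gave 477, 7 and 653 reads in control cells against 707, 106 and 111 in 8 h cells. Control 2 stood apart at 1.39 CPM, against 85.3 and 59.6 CPM in controls 1 and 3, and the 8 h libraries stood at 83.0, 7.98 and 16.1 CPM. The groups overlapped. The log2 fold change stood at -0.45 ± 1.72 (SE) with all libraries, at -2.01 leaving out 8 h replicate 1 and at 0.18 leaving out control replicate 1.

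Ccr6 (chr17:8236041-8258519), the receptor for Ccl20 on Th17 and regulatory T cells, gave 0, 116 and 355 reads in control cells against 0, 185 and 3 in 8 h cells. A count of 0 allows up to 0.536 CPM in control 1 and 0.352 CPM in 8 h replicate 1, taking 3 counts as the limit and counting error only. The other 2 controls stood at 23.1 and 32.4 CPM, and 8 h replicates 2 and 3 at 13.9 and 0.435 CPM. Each group thus held both a library with 0 counts and a library with over 100 counts. The log2 fold change of -1.94 ± 1.73 (SE) became -6.35 on leaving out 8 h replicate 2 and -1.21 on leaving out control replicate 3.

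S1pr1 (chr3:115710433-115715055), the egress receptor and the gene with the seed match shown above, gave 9, 51 and 29 reads in control cells against 24, 476 and 44 in 8 h cells. Its CPM were 1.61, 10.1 and 2.65 in the controls and 2.82, 35.8 and 6.38 at 8 h. The 8 h group mean of 15.0 ± 18.1 CPM (SD, n = 3) rested on replicate 2, and the control mean was 4.80 ± 4.66 CPM (SD, n = 3). The groups overlapped, and the log2 fold change of 1.65 ± 1.70 (SE) became -0.04 on leaving out 8 h replicate 2 and 2.82 on leaving out control replicate 2.

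Klf2 (chr8:72319062-72321654), the zinc finger factor of quiescence, gave 344, 10 and 49 reads in control cells against 344, 104 and 13 in 8 h cells. Replicate 1 was the highest of each group, at 61.5 CPM in the controls and 40.4 CPM at 8 h. The other 4 libraries stood between 1.88 and 7.83 CPM. Its log2 fold change was -0.44 ± 1.69 (SE), 2.33 without control replicate 1 and -2.18 without 8 h replicate 1. S1pr1 was at its lowest of each group in replicate 1, where Klf2 was highest. Of the other libraries at 8 h, replicate 2 was above replicate 3 for both Klf2 (7.83 and 1.88 CPM) and S1pr1 (35.8 and 6.38 CPM). In the controls, replicate 2 was below replicate 3 for Klf2 (1.99 and 4.47 CPM) and above it for S1pr1 (10.1 and 2.65 CPM). Ccr7 was lowest in control 1 among the controls but in replicate 3 at 8 h, where Klf2 was lowest as well. The relation of Klf2 and S1pr1 across libraries was not tested.

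**Figure D1:**
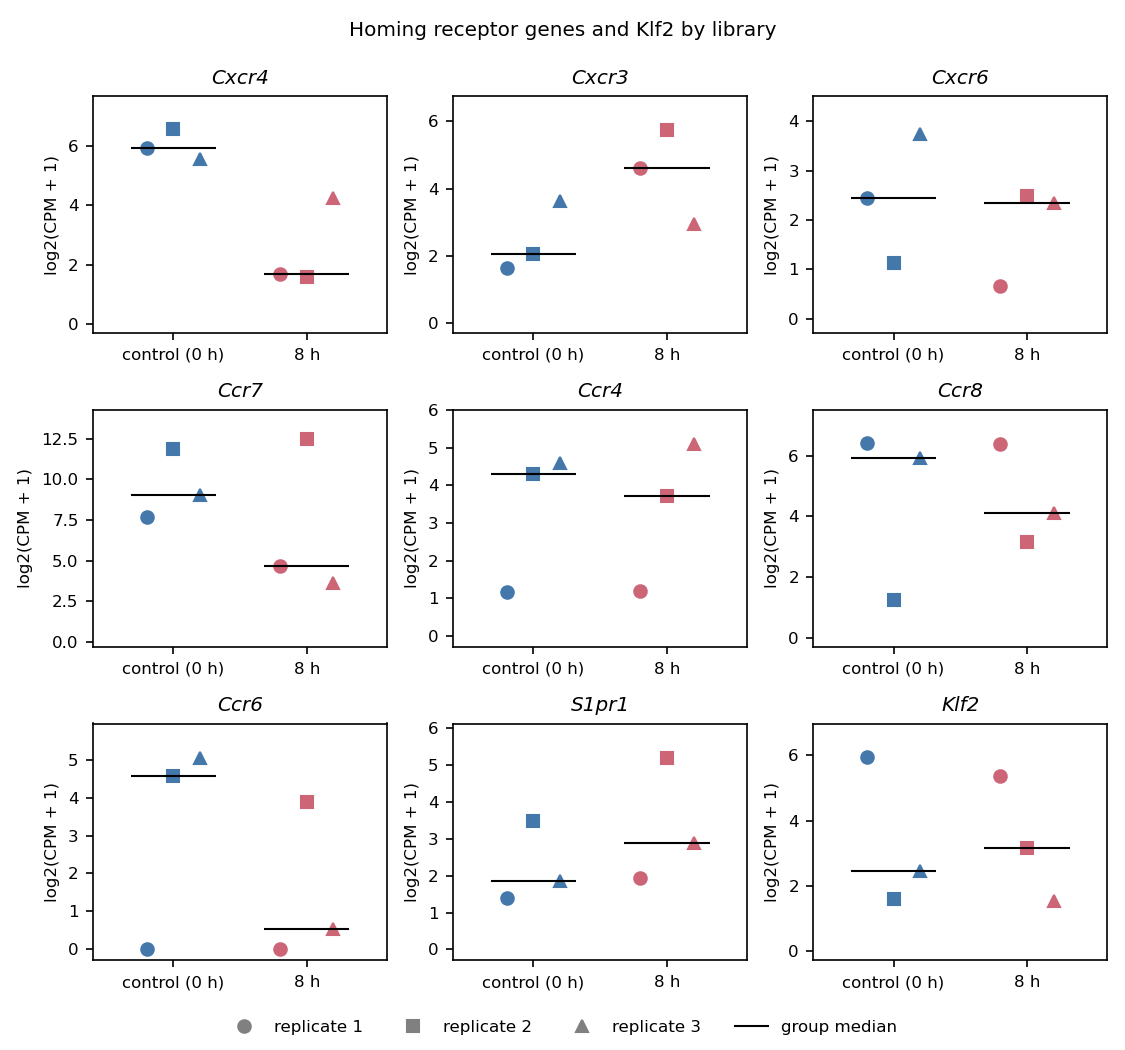
Each panel plots 1 gene, with log2(CPM + 1) on the vertical axis, the groups on the horizontal axis, 1 point per library and a line at the group median. The groups of Cxcr4 do not overlap, whereas Ccr7 at 8 h runs from 11.6 to 5629 CPM and Ccr6 holds a library at 0 in each group.

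Taken as a set, 5 of the 9 genes had lower and 4 had higher fitted values at 8 h, with a median log2 fold change of -0.44. Over all 8308 tested rows, 48.7% had lower fitted values and the median was 0.06. Across the whole table edgeR called 0 rows (0%), with 709 at an unadjusted p under 0.05 and 399 called by DESeq2. Within a group, the 8 genes detected in all libraries differed between their highest and lowest library by a median of 14.3-fold in controls and 11.6-fold at 8 h. 8 h replicate 2 held the highest value of 3 genes (Cxcr3, Ccr7 and S1pr1), control 1 of 2 (Ccr8 and Klf2) and control 3 of 2 (Cxcr6 and Ccr6). Control 2 was highest for Cxcr4 and 8 h replicate 3 for Ccr4.

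The 9 genes together took 0.0365%, 0.429% and 0.0627% of all counts in control libraries against 0.0178%, 0.560% and 0.0109% in 8 h libraries. Control 2 and 8 h replicate 2 were the highest, and Ccr7 supplied 96.1% and 97.6% of the sum there. Without Ccr7 the other 8 genes took 0.0187%, 0.0169% and 0.0171% in the controls and 0.0153%, 0.0133% and 0.00958% at 8 h. Their sum was lower in each 8 h library than in each control, and this rested on Cxcr4. Without Cxcr4 as well, the remaining 7 genes took 0.0135%, 0.00657% and 0.0130% in the controls and 0.0151%, 0.0131% and 0.00759% at 8 h, which overlap. Both genes were set aside after their values were seen. In each control Cxcr4 and Ccr8 together had more counts than the other 6 genes.

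**Figure D2:**
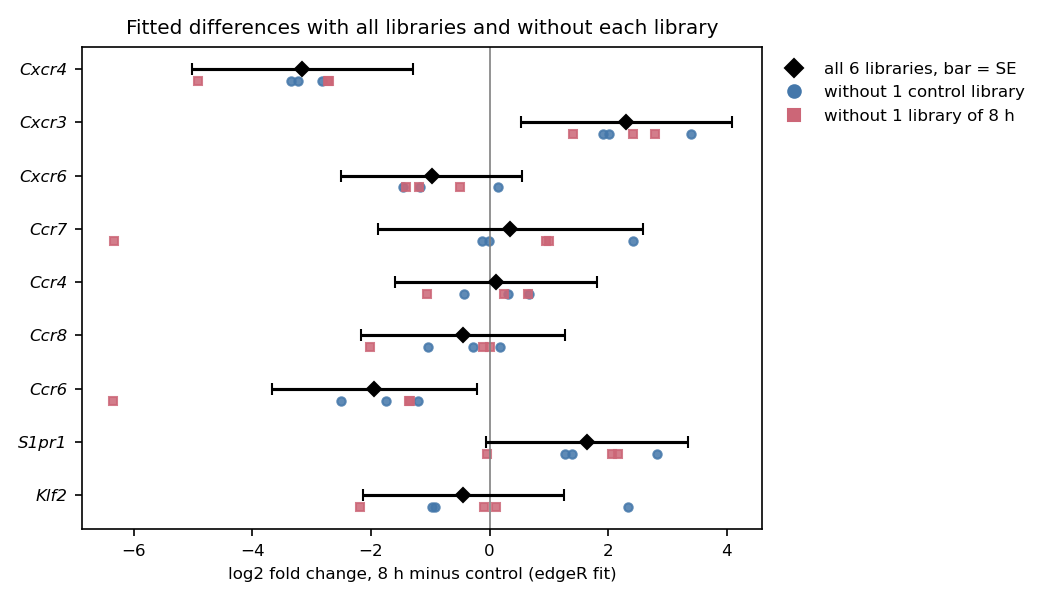
For each gene the diamond gives the log2 fold change of 8 h minus control with all 6 libraries and its SE, and the smaller points give it without 1 library. Cxcr4, Cxcr3 and Ccr6 keep their sign without any single library, while Ccr7 moves to -6.33 without 8 h replicate 2 and Klf2 to 2.33 without control replicate 1.

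To order the genes by level, CPM were divided by the length of each row's transcript in kilobases. In the controls, Ccr7 was the highest with a median of 259 CPM per kb, followed by Ccr8 (50.7), Cxcr4 (33.1) and Ccr6 (16.5). Then came Ccr4 (6.66), Klf2 (2.42), Cxcr6 (2.36), Cxcr3 (1.84) and S1pr1 (0.868 CPM per kb). Of neighbours in this order, only Ccr7 and Ccr8, and Cxcr4 and Ccr6, had ranges that did not overlap. At 8 h the highest median was that of Ccr8 (13.7), then Cxcr3 (13.4), Ccr7 (12.5), Ccr4 (4.35) and Klf2 (4.24). Cxcr6 (2.14), S1pr1 (2.09), Cxcr4 (1.24) and Ccr6 (0.311 CPM per kb) were the lowest. No neighbours at 8 h were separated by their ranges, so the order within that group is not resolved by 3 libraries. By median level per kb Cxcr4 was the third in controls and the eighth at 8 h, and Cxcr3 the eighth in controls and the second at 8 h.

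**Figure D3:**
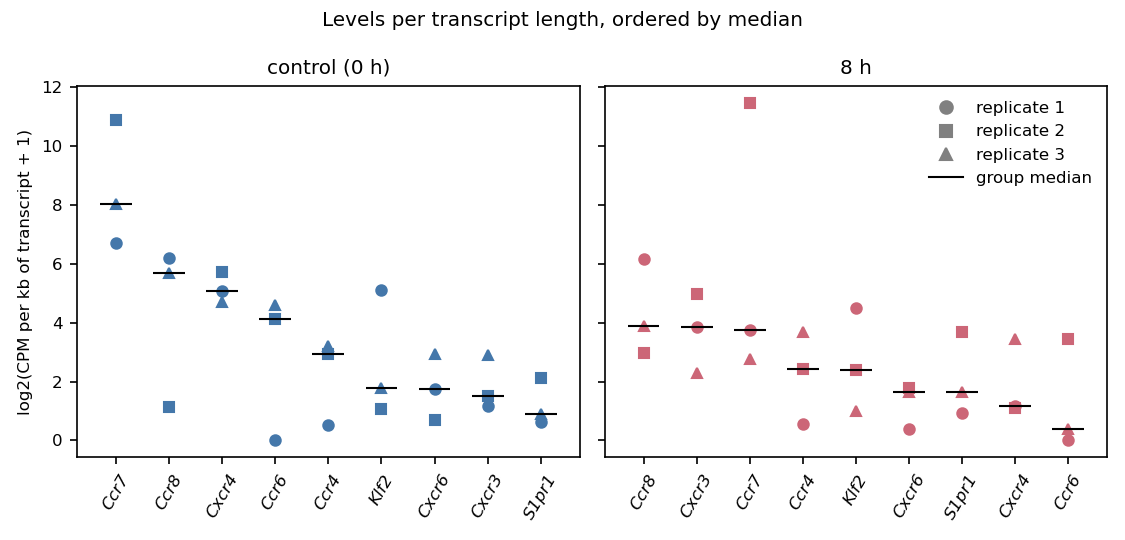
Genes are ordered by their median in each group, with log2(CPM per kb of transcript + 1) on the vertical axis and 1 point per library. In the controls Ccr7 lies above the other genes, and at 8 h the ranges of all neighbouring genes overlap.

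The receptor genes share a compact build. Cxcr6, Ccr4, Ccr8, Ccr6 and S1pr1 hold their coding sequence in 1 exon, Cxcr4 and Cxcr3 in 2, and Ccr7 and Klf2 in 3. Their proteins are 351 to 382 residues long. Ccr4, Ccr8 and Cxcr6 lie on chromosome 9. Cxcr6 sits in its cluster of inflammatory receptors between Ccr9 (chr9:123767211-123783457) and Xcr1 (chr9:123852315-123862029). Its neighbours were low or uneven: Ccr9 had 0 to 25 counts, and Xcr1 had 141 counts in control 2 and 174 in 8 h replicate 2 but at most 4 in the other libraries. Among the controls Cxcr6 was highest in control 3 with 137 counts, where Xcr1 had 1 count. At 8 h both genes were highest in replicate 2, where Cxcr6 had 61 counts.

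Other genes of the homing pathway and of related lists were read from the same fit. The 9 lists, which include lineage and quiescence factors, hold 192 genes, of which 179 were matched. Of these 106 had enough counts for the test. edgeR's quasi-likelihood test, with Benjamini-Hochberg adjustment over all rows, called 0 of the 106 higher and 0 lower. At an unadjusted p under 0.05 it gave 6 of them (5.66%), against 709 of all 8308 rows (8.53%). DESeq2 called 5 of the 106, all lower at 8 h, and 4.8% of all rows. The groups did not overlap in 15 of the 106 (14.2%), 4 higher and 11 lower at 8 h, against 10.8% of all rows.

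The list of other chemokine receptors also held receptors for other ligands, among them Ptger4, C5ar1 and Cmklr1, which were tested. Its genes were scarce: 20 of 22 were matched and 7 tested, with 2 higher and 5 lower fitted values and 0 called by edgeR. The median log2 fold change was -0.27, which is the value of Ptger4, so these figures do not describe chemokine receptors alone. Cxcr5, the receptor of B cell follicles, gave 130, 8 and 52 reads in control cells against 17, 22 and 11 in 8 h cells, with a log2 fold change of -2.48 that became -0.88 without control replicate 1. Ccrl2 averaged 4.68 ± 4.63 CPM in control and 10.7 ± 7.99 CPM in 8 h cells, and Cmklr1 had 6.34 ± 5.67 and 3.34 ± 2.36 CPM (SD, n = 3 per group).

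Of the ligands of the 9 genes' receptors, 6 of 10 matched genes were tested, with 4 higher and 2 lower fitted values. Ccl22, a ligand of Ccr4, gave 231, 124 and 148 reads in control cells against 70, 70 and 10 in 8 h cells, and its groups did not overlap (log2 fold change -2.41 ± 1.78 SE, edgeR adjusted p = 0.716). Ccl20, the ligand of Ccr6, gave 13, 34 and 24 reads in control cells against 840, 238 and 8 in 8 h cells, with 8 h replicate 3 the lowest of all when scaled to CPM. Its log2 fold change was 3.38, and 1.38 without 8 h replicate 1. Ccl1, the ligand of Ccr8, averaged 8.44 ± 9.08 CPM in control and 19.4 ± 18.2 CPM in 8 h cells (SD, n = 3 per group). Ccl19, a ligand of Ccr7 that DESeq2 called, gave 29, 17 and 231 reads against 14, 8 and 4. Among 12 tested chemokines with other receptors, 6 had higher and 6 lower fitted values. Ccl4, Ccl5 and Ccl3, which attract effector cells, had 378 ± 618, 86.1 ± 77.9 and 10.2 ± 7.01 CPM in controls. At 8 h they had 22.3 ± 28.3, 15.0 ± 16.8 and 33.3 ± 19.2 CPM (SD, n = 3 per group). The control mean of Ccl4 came from control 3 (3.58, 39.8 and 1091 CPM), without which its log2 fold change went from -4.08 to 0.09.

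In the sphingosine-1-phosphate list 7 of 11 matched genes were tested, with 4 higher and 3 lower fitted values. They include Spns1 and Ptpn6, which stand beside the genes of this lipid's own pathway. S1pr4, a receptor of lymphocytes related to S1pr1, gave 1732, 457 and 2479 reads in control cells against 68, 402 and 311 in 8 h cells. Every 8 h library was below every control in CPM, and the log2 fold change was -2.91 ± 1.97 (SE; edgeR adjusted p = 0.685). The fitted value of S1pr1 had the opposite sign, at 1.65, but was -0.04 without 8 h replicate 2. The difference between both receptors was not tested. Sphk2, a kinase that makes sphingosine-1-phosphate, and Spns1 had 25.9 ± 28.1 and 31.3 ± 16.7 CPM in controls against 24.3 ± 25.5 and 16.2 ± 13.2 CPM at 8 h (SD, n = 3 per group).

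Of the list around Foxo1 and Klf2, 11 of 24 genes were tested, with 5 higher and 6 lower fitted values and a median log2 fold change of -0.01. Foxo1 itself had 1 to 9 counts per library and was not tested. Slfn2 and Bach2, genes of T cell quiescence, had 672 ± 857 and 152 ± 189 CPM in controls and 194 ± 304 and 42.0 ± 37.9 CPM at 8 h, while Lef1 had 24.7 ± 25.6 and 28.1 ± 22.3 CPM (SD, n = 3 per group). Single controls set the first 2: without control replicate 2 the log2 fold change of Slfn2 went from -1.79 to 0.03, and without control replicate 3 that of Bach2 went from -1.86 to -0.07. Klf5, a relative of Klf2 that DESeq2 called, gave 99, 22 and 280 reads in control cells against 1, 0 and 2 in 8 h cells.

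Adhesion genes had a median log2 fold change of -1.65, with 11 of 17 tested genes lower and 6 higher, 0 of them called by edgeR. Itgb2, the beta chain of the integrin LFA-1, gave 577, 13193 and 68890 reads in control cells against 1137, 872 and 111 in 8 h cells. Its log2 fold change was -5.39 ± 2.68 (SE; edgeR adjusted p = 0.569), and control 1 stood below 8 h replicate 1 in CPM, so the groups overlapped. Itgae, an integrin chain of T cells in epithelia, gave 90, 121 and 43 reads against 5, 9 and 10, without overlap (edgeR adjusted p = 0.538). DESeq2 called both. Selplg, the selectin ligand PSGL-1, had 683 ± 792 and 196 ± 129 CPM, and Itgb7, of the gut-homing integrin, 105 ± 128 and 89.2 ± 125 CPM (SD, n = 3 per group). The log2 fold change of Selplg was -1.80, and -0.29 without control replicate 1. That of Itgb7 was -0.23, and between -2.58 and 1.53 without each library.

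Genes of G protein signalling had the highest median of the 9 lists, at 1.08, with 11 of 15 tested genes higher and 4 lower at 8 h, and 0 called. Rgs1, which shortens chemokine receptor signals, gave 4895, 209 and 1677 reads in control cells against 11823, 404 and 240 in 8 h cells. Gnb2, a G protein beta subunit, gave 449, 125 and 129 reads against 88, 11366 and 3261, and Rgs10 had 33.9 ± 15.9 against 629 ± 937 CPM (SD, n = 3 per group). For Rgs10 the 8 h libraries stood at 173, 7.61 and 1707 CPM, with replicate 2 below every control, and its log2 fold change went from 4.21 to 1.43 without 8 h replicate 3. That of Rgs1 went from 0.44 to -3.43 without 8 h replicate 1. Among 19 tested genes of the migration cytoskeleton, 10 had higher and 9 lower fitted values (median 0.02). Rac2, a small GTPase of blood cells, had 338 ± 389 and 1021 ± 1081 CPM, Was 333 ± 375 and 141 ± 140 CPM, and Arhgef1 304 ± 298 and 308 ± 247 CPM (SD, n = 3 per group). Without control replicate 2 the log2 fold change of Was went from -1.24 to 0.13. Of 13 tested lineage factors 4 had higher and 9 lower fitted values. Batf, an AP-1 factor that DESeq2 called, gave 1752, 7423 and 19326 reads in control cells against 104, 203 and 512 in 8 h cells (edgeR adjusted p = 0.553). Stat4 had 465 ± 361 and 462 ± 764 CPM, and Gata3, the Th2 factor, 98.9 ± 126 and 185 ± 245 CPM (SD, n = 3 per group). Without 8 h replicate 2 the log2 fold change went from -0.01 to -4.45 for Stat4 and from 0.90 to -1.14 for Gata3.

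**Figure D4:**
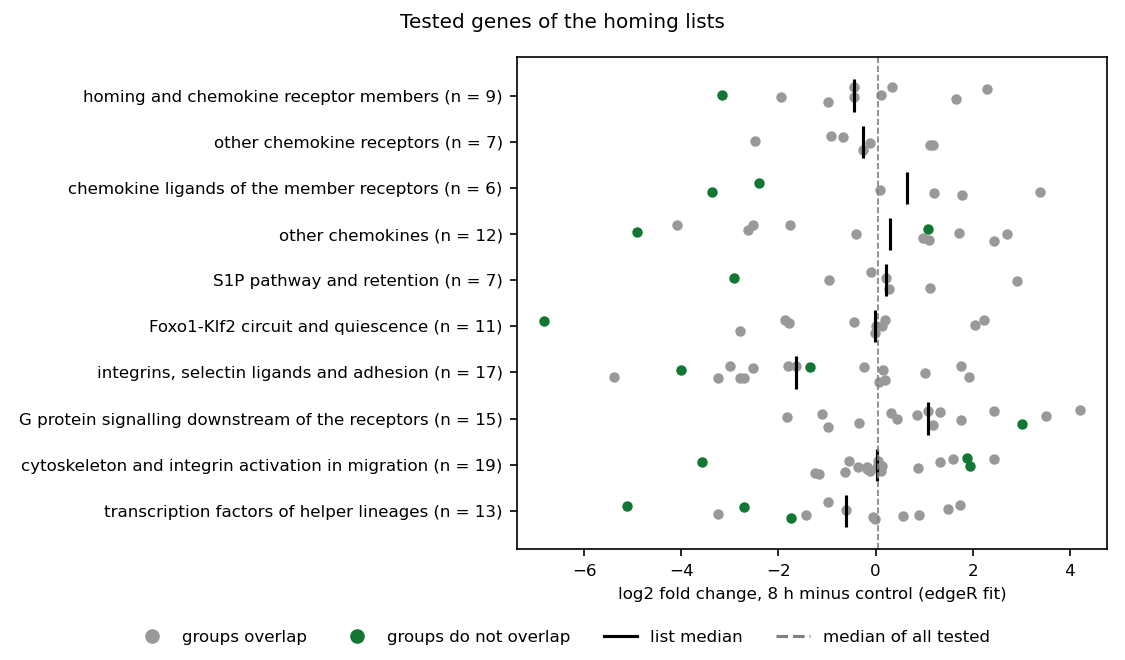
Each point is a tested gene, placed by its log2 fold change of 8 h minus control, with 1 row per list, a bar at the list's median and a dashed line at the median of all tested rows (0.06). Green points are genes whose groups do not overlap, and edgeR called 0 of the 106 genes in the lower 9 lists.

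Markers of further cell types were read in the same libraries, because several of these receptors are also found outside CD4+ T cells. The 12 matched T cell markers summed to 3455 to 19591 CPM in controls and 5895 to 12501 CPM at 8 h. In some libraries a single gene carried most of this sum, and not always the same gene. Cd3d stood at 14700 CPM in control 2, Lck at 14784 CPM in control 3 and Cd3g at 7823 CPM in 8 h replicate 3. The ranges of the B cell list were 82.5 to 139 and 47.1 to 114 CPM, those of the monocyte and macrophage list 78.8 to 181 and 14.1 to 80.0 CPM, and those of the erythroid and platelet list 34.8 to 163 and 8.84 to 93.2 CPM. The CD8 markers ranged from 7.56 to 38.4 and from 11.4 to 60.7 CPM, and neutrophil markers from 4.83 to 49.5 and from 5.07 to 31.9 CPM, in controls and at 8 h. All 6 tested monocyte and macrophage genes had lower fitted values at 8 h (median log2 fold change -1.84). Higher and lower numbered 2 and 5 for B cell, 1 and 4 for erythroid and platelet, and 5 and 4 for T cell markers. They were 2 and 0 for CD8 and 1 and 1 for neutrophil markers. Over all tested rows 48.7% were lower.

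The profile of Cxcr4 over the 6 libraries was compared with those of 8127 other named and tested genes, as the root mean square difference of log2 CPM after centring each gene on its mean. The nearest were Ccdc71l (0.45), Fuca2, a fucosidase (0.48), Alkbh5, an RNA demethylase (0.51), Blm, a DNA helicase (0.51), and Abca1, a lipid transporter (0.59). The median over all genes was 2.75. Fuca2 gave 244, 591 and 1094 reads in control cells against 20, 41 and 146 in 8 h cells, and Abca1 gave 375, 201 and 351 reads against 15, 10 and 43. With 6 libraries and 8127 genes some profiles lie close together, and the list is a description. None of the 5 belongs to the gene lists used here.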

How the data were processed

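The deposited table holds read counts, as whole numbers, per RefSeq accession for 6 libraries, sequenced as single reads of 50 bases from TruSeq libraries, per the labels. The submitters' processing notes list Bowtie, R 3.4.2 and GRCm38 without saying what each did. For the counting program, strand use, multiply mapped reads and row filters nothing is stated in the labels, so near-identical or overlapping genes are uncertain. Columns were matched to samples by title, and 0 lay outside the series. Symbols came from a RefSeq table of GRCm38.p6 (12824 accessions) or GENCODE M21 (50), and 303 stayed unnamed.

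Groups were compared with edgeR 4.0.16 (R 4.3.3): TMM scaling, filterByExpr (8308 rows kept), the robust quasi-likelihood F test, two-sided, Benjamini-Hochberg adjustment at 0.05, with group as the only term. SE were obtained by dividing the size of the log2 fold change by the root of F. CPM use TMM-scaled library sizes. Levels per kb use the length of the GENCODE transcript of each accession. Scripts were tested on simulated counts. Limits for a count of 0 cover counting error only, and reads carried no molecular identifiers. The SD and SE include the spread between libraries.

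The members and lists were chosen with earlier results of these data known. Genes named are the 9 members, list genes past the test, the 3 tested genes of highest mean CPM per list, check genes (Cd3d, Cd3e, Lck, Cd4, Cd8a, Actb, Gapdh) and the 5 profiles nearest to Cxcr4. Others (Foxo1, Ccl19, Klf5, Itgae, Ccr9, Xcr1, Cd3g and the genes named of the cytotoxic and dendritic cell lists) were chosen after their values were seen. Lck had 171 to 162085 and Cd8a 6 to 72 counts. Alternatives were a replicate block, RLE, upper-quartile and no scaling, both filters, DESeq2 1.42.0, the newer quasi-likelihood fit, limma-voom (limma 3.58.1), leaving out each replicate, other site definitions and exonic length.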

Additional observations from a re-analysis of the deposited data

How the results depend on the processing

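The number of rows called between 8 h and control was 0 under every alternative but DESeq2, which called 399, 194 higher and 205 lower, with no adjusted p for 1720 rows. Rows at an unadjusted p under 0.05 numbered 709 in edgeR, 1371 in DESeq2 and 400 in limma-voom. Of the other listed genes DESeq2 called 5 (Batf, Ccl19, Itgae, Itgb2 and Klf5), with 21 of 106 lacking an adjusted p. The remaining alternatives called 0. Of the 9 members, 4 to 6 had lower fitted values, 6 with the replicate block or without 8 h replicate 2, and 4 with a mean of at least 5 CPM, where Cxcr6 was not tested. With 8mers alone 0 members held a site. Over 134 refits of the members the sign changed in 16, none of them from scaling, and never for Cxcr4, Cxcr3 or Ccr6. With the replicate block the log2 fold change was -2.78 for Ccr7, 0.12 for Ccr8 and -3.99 for Cxcr4, and with limma-voom -2.85 for Ccr7 and 0.34 for Ccr8. The causes were not tested. Libraries sharing a replicate number had residual correlations of -0.0107, 0.0151 and -0.0039. Libraries of different numbers were not compared in this way, so whether the numbers pair the samples remains unknown. For 31 other named genes the sign changed in 36 of 463 refits, in 14 genes. Exonic in place of transcript length moved no mean level by more than 1 SD, a wide margin where the SD is close to the mean. The mean of Ccr6 went from 13.2 to 7.97 CPM per kb in controls and from 3.43 to 2.06 at 8 h. Klf2 and Ccr4 changed places in the order by median at 8 h. The number of libraries and the spread between them limit these comparisons, and depth leaves values of a few counts, as in Ccr6, imprecise. With groups of 3, no outlying library was tested for.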
